A study of Homo sapiens with 16 samples.

Results

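The wide regions of RNA polymerase II (Pol II) described here numbered 4528. They were found by merging the Pol II peaks of control cells and of cells given merbarone for 30 min or 1 h wherever peaks overlapped by at least 1 bp. Merging gave 104562 regions, of which 34044 held a peak from each of the 3 Pol II lists. Kept were regions of 2 kb or more, with a peak in each list, in which control Pol II lay in at most 3 pieces. A piece is a run of control peaks standing no more than 37 bp apart. Another 1940 regions of 2 kb or more were split into more than 3 control pieces, here called the fragmented regions, and 27576 regions were narrower than 2 kb. The number of control pieces and the merged width were measured values, so the members were selected on the same peak lists whose edges and cover are given below. Those values are therefore a description and carry no test.

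The cells were hTERT RPE-1, a wild-type human line from the retinal pigment epithelium, made to keep dividing with telomerase, and all were held in 0.1% serum for 48 h before fixation with 1% formaldehyde for 10 min. Pol II was precipitated with an antibody to the amino-terminal part of its largest subunit, RPB1, and DNA topoisomerase II alpha (TOP2A) with an antibody of its own. The control list of Pol II peaks stood for 3 libraries given DMSO for 30 min and 3 untreated libraries. The other Pol II lists stood for 3 libraries given 200 uM merbarone for 30 min and 2 given the same dose for 1 h, and the TOP2A list for 2 libraries of untreated cells. Of 16 libraries, 3 were IgG controls and were not analysed here. No vehicle library matched the 1 h time, and serum-starved cells of a single line are the only model used.

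Pol II makes messenger RNA. It often halts a short way past the promoter before it is released into the gene, and at very active or short genes it can be found along the whole gene. As it moves along DNA, the helix is overwound ahead of it and underwound behind it. TOP2A cuts both strands of a duplex, passes another duplex through and reseals the cut, which removes such supercoils. Merbarone inhibits topoisomerase II without trapping the enzyme on cut DNA. The comparison asks how far Pol II extended at either end of wide bound regions when topoisomerase II was blocked, and where TOP2A stood in them.

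Each list gave only the start and end of each peak on the hg19 genome, without a height, a score or a read count. Libraries of a condition shared 1 list, so no value has a spread between replicates, and the read depth behind each list is unknown. Intervals in parentheses are 95% Wilson intervals for the counting of regions or peaks. They do not cover the spread between samples, and neighbouring regions are not independent. The lists were also made with unlike limits: the smallest peaks of the control, 30 min and 1 h lists were 136, 150 and 159 bp wide. The closest peaks stood 1 bp apart in control and at 30 min and 38 bp apart at 1 h. Strand and genes were not known for any region, since no hg19 annotation was used here, so ends are given as the side of lower or of higher coordinate.

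Most of these regions were only a few kb long. Their merged width had a median of 2663 bp and reached 33.7 kb. Of them, 2856 were under 3 kb wide, 1181 were 3 to 5 kb, 422 were 5 to 10 kb and 69 were 10 kb or wider. They held 29.5% of all bases under control Pol II peaks, 27.6% of those at 30 min and 24.7% of those at 1 h. Members made up between 8.04% (chromosome X) and 16.1% (chromosome 11) of the regions with a peak in each list, by chromosome.

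In control, 1663 members lay in a single piece, 1634 in 2 pieces and 1231 in 3. Control peaks covered a median of 86.2% of the merged length, with quartiles of 74.2% and 93.8%. Not every member was solid in control: in 348 of them, control peaks covered less than 50% of the length, down to 3.03%. Of these, 68 had a single control piece; the others had 2 or 3. The set is therefore best described by its rule, as wide regions with at most 3 control pieces. Cover and the share of outward sides are given with and without those 348.

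Pol II cover of the members was more complete at 1 h than in control. The median share under peaks was 86.2% in control, 89.7% at 30 min and 97.4% at 1 h. At least 90% of the length was covered in 1729 members by control peaks, in 2206 by 30 min peaks and in 3775 by 1 h peaks. Pol II lay in a single piece in 36.7% of members in control, 45.3% at 30 min and 67.3% at 1 h, while 406 were split into more than 3 pieces at 30 min and 105 at 1 h. By construction, every base of a merged region that lacks a control peak lies under a peak at 30 min or 1 h, so the merging itself favours higher shares with merbarone.

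**Figure D1:**
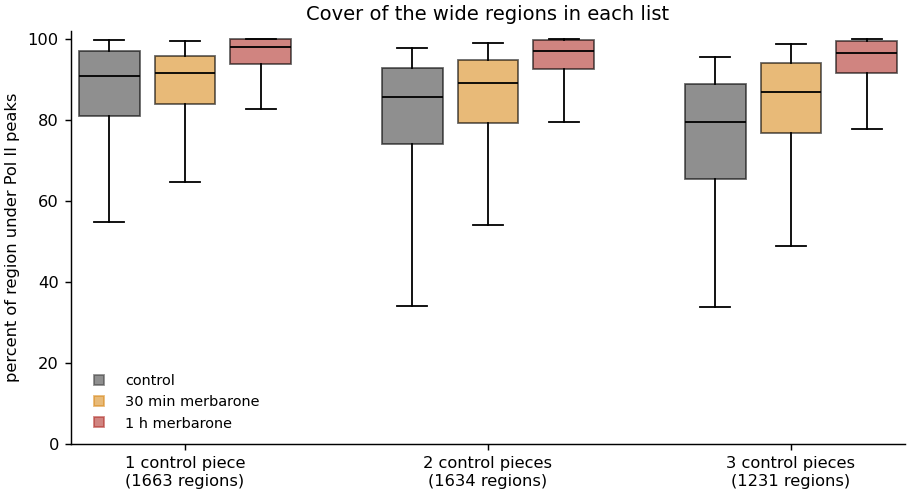
Percent of each wide region under Pol II peaks in the control, 30 min and 1 h lists (y axis), for members with 1, 2 or 3 control pieces (x axis). Boxes span the quartiles, the line is the median and whiskers reach the lowest and highest 5%; medians at 1 h lie between 96.6% and 98.01%, and the control medians go from 90.9% with 1 piece to 79.6% with 3.

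The control share was lower where there were more pieces, and the 1 h share was nearly the same. Members with 1 control piece had medians of 90.9% in control, 91.6% at 30 min and 98.01% at 1 h. With 3 pieces the medians were 79.6%, 87.1% and 96.6%. Past the limit of the rule the values ran on without a step: the 798 regions of 2 kb or more with 4 control pieces had medians of 75.4%, 86.7% and 96.8%.

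Summed over the members, 12.6 Mb lay under control peaks, 13.2 Mb under 30 min peaks and 14.4 Mb under 1 h peaks. The ratio to control was 1.04 at 30 min and 1.14 at 1 h. Fragmented regions had ratios of 1.09 and 1.24, and narrower regions 1.10 and 1.26. Among members the 1 h ratio was 1.21 at 2 to 3 kb, 1.16 at 3 to 5 kb, 1.04 at 5 to 10 kb and 1.02 from 10 kb up. Cover cannot exceed the merged length, and the median control share in these classes was already 82.6%, 88.3%, 95.3% and 97.9%. Fuller control cover leaves less room for a gain, so nothing is read from the fall of the ratio with width. The same bound applies to every ratio given here. From 10 kb up, the 30 min ratio was 0.985, a slightly shorter cover than in control. The 348 members with little control cover had ratios of 1.87 and 3.11. Without them the ratios were 1.02 and 1.10.

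The members with most bases under control peaks had nearly the same cover in each list. The widest, on chromosome 11 from 65184409 to 65218149, held 32796 bp of Pol II cover before merbarone, 32725 bp after 30 min and 33629 bp after 1 h. Its control Pol II lay in 3 pieces and its 1 h Pol II in 1. On chromosome 5 from 151037747 to 151067106, 98.8% of 29.4 kb was covered in control, 97.2% at 30 min and 99.8% at 1 h. On the same chromosome from 176902332 to 176925543, 97.98% of 23.2 kb was covered in control, 98.5% at 30 min and 99.4% at 1 h. High control cover in these regions follows from their choice, since they are the 5 with most bases under control peaks.

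The other 2 of these 5 also had nearly the same cover in each list, and the number of pieces varied. It varied in the 2 regions on chromosome 5 too. In the order given above, each had 3 pieces in control, with 5 and 1 at 30 min and 2 and 1 at 1 h. On chromosome X from 153576435 to 153603826, Pol II lay in 2 pieces in control, 5 at 30 min and 1 at 1 h, over 97.9%, 96.4% and 99.99% of 27.4 kb. The region on chromosome 11 from 65616772 to 65641474 went the other way, with 2 pieces in control and at 30 min and 3 at 1 h, over 98.9%, 99.3% and 98.4% of 24.7 kb. At 30 min the outer edges of these 5 regions stood within 137 bp of control, and at 1 h none lay more than 139 bp inward. At 1 h the outward shift on the higher side was 376 bp for the widest, 383 bp on chromosome X and 286 bp for the region on chromosome 5 that starts at 176902332.

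**Figure D2:**
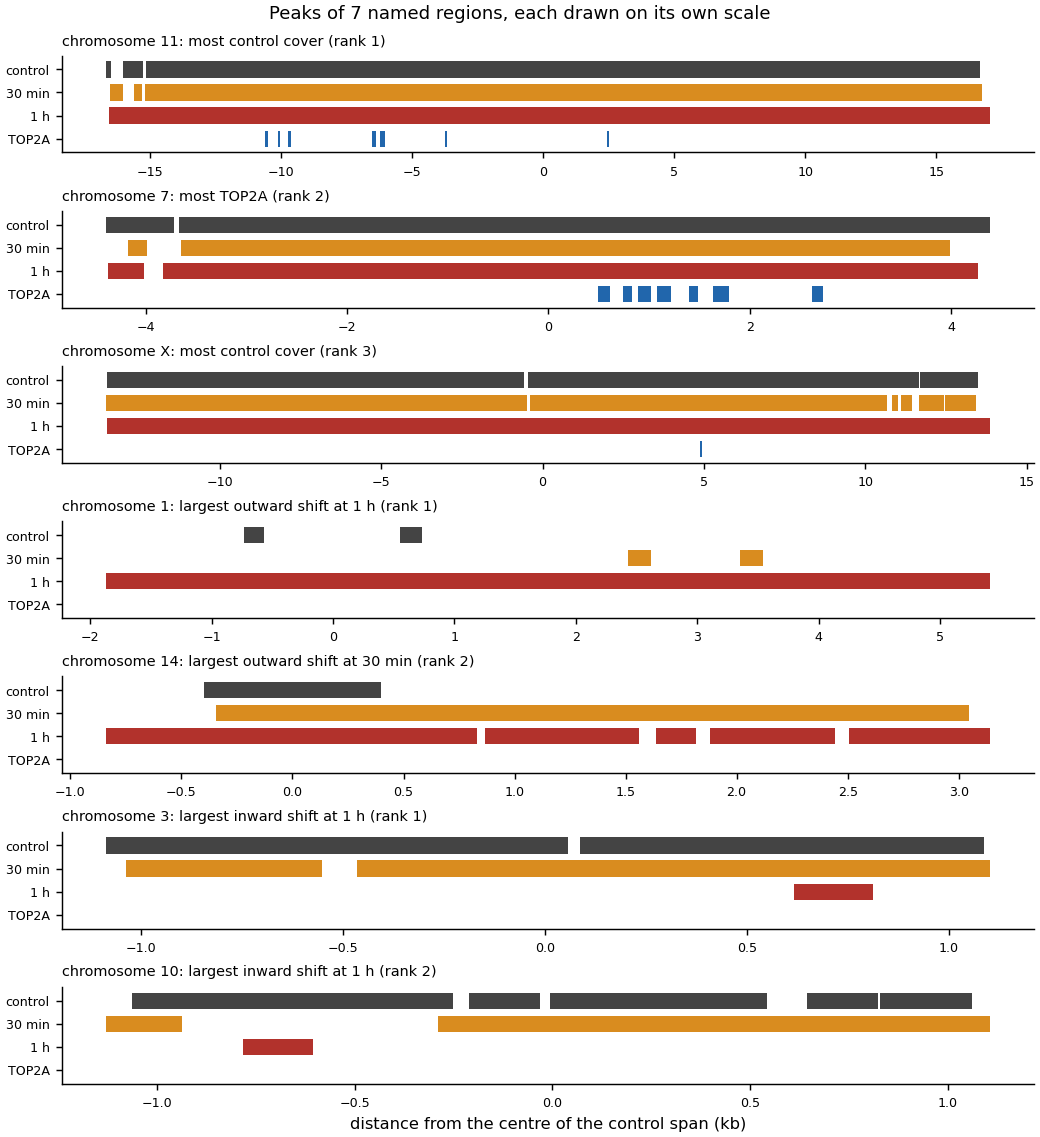
Pol II peaks in control, at 30 min and at 1 h, and TOP2A peaks of untreated cells, in 7 named regions; the x axis is the distance in kb from the centre of the control span, and each region has its own scale. The 3 widest regions shown are filled or nearly so in every Pol II list, the regions on chromosomes 1 and 14 have short control peaks beside long peaks at 1 h or 30 min, and those on chromosomes 3 and 10 are nearly empty at 1 h.

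An edge is the outermost base of a list's peaks inside a merged region, and a shift is counted as outward when the merbarone edge lies beyond the control edge. At 30 min the typical edge hardly moved: the median outward shift was 14 bp on the lower side, with quartiles of -58 and 117 bp, and 14 bp on the higher side, with quartiles of -57 and 110 bp. More than 200 bp outward lay 756 lower edges (16.7%, 15.6 to 17.8), against 12.5% over all regions with a peak in each list. On the higher side 710 edges did (15.7%, 14.7 to 16.8), against 12.4%. More than 200 bp inward lay 389 lower edges (8.59%), against 7.23% over all such regions, and 394 higher edges (8.70%), against 7.42%. Nothing is read from these differences to the background, since the rule used the lists.

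At 1 h the edges lay further out on both sides. The median shift from control was 60 bp on the lower side, with quartiles of -23 and 215 bp, and 52 bp on the higher side, with quartiles of -22 and 210 bp. Over 200 bp outward lay 1210 lower edges (26.7%, 25.5 to 28.0; 18.8% over all regions with a peak in each list) and 1177 higher edges (26.0%, 24.7 to 27.3; 18.8%). Over 200 bp inward lay 225 lower edges (4.97%, against 4.45%) and 193 higher edges (4.26%, against 4.44%). The comparisons at 30 min and at 1 h used the same control list, so they are not independent of each other.

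**Figure D3:**
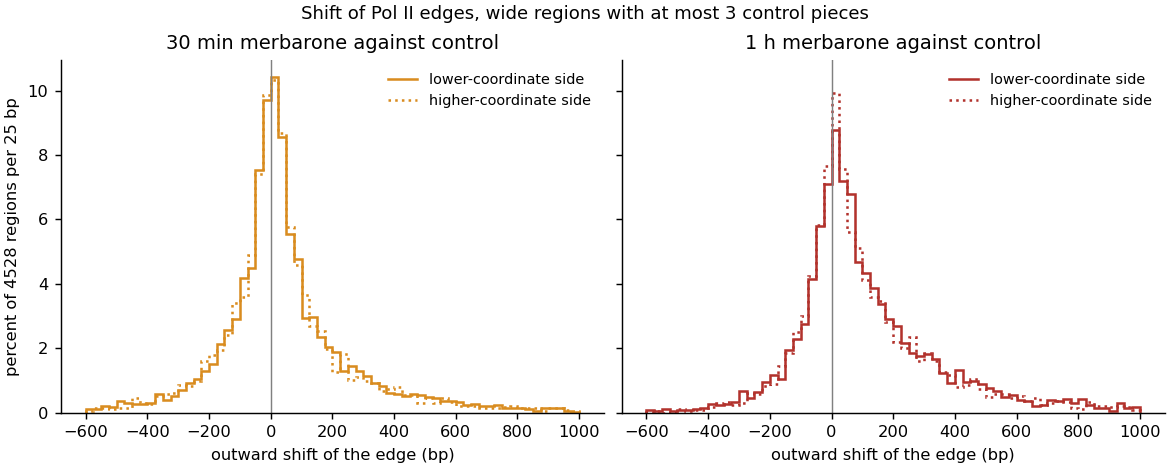
Outward shift of the lower and the higher edge of Pol II in bp (x axis, bins of 25 bp, from -600 to 1000) against the percent of the 4528 members (y axis), at 30 min and at 1 h against control. Both sides have the same shape at each time, centred near 14 bp at 30 min, and at 1 h the right flank is fuller, with medians of 60 and 52 bp.

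Shifts of over 1 kb outward were few among the 4528 members: 40 lower and 49 higher edges at 30 min, and 80 and 99 at 1 h. In the 1940 fragmented regions the counts were 9 and 12 at 30 min, and 24 and 28 at 1 h. The 27576 narrower regions had 38 and 33, then 66 and 68, and their width leaves less room for such shifts. The lower and higher sides gave nearly equal values at each time; without strand, each side mixes upstream and downstream ends. In fragmented regions 16.4% of lower and 16.6% of higher edges lay outward at 30 min, and 12.5% and 13.2% lay inward, a larger inward share than in members. At 1 h, 23.6% (21.8 to 25.6) of their lower and 25.6% (23.7 to 27.6) of their higher edges lay outward and 5.62% and 4.69% inward. The merbarone lists were also set directly against each other: from 30 min to 1 h, 849 lower edges (18.8%) lay more than 200 bp further out and 227 (5.01%) further in. On the higher side the counts were 896 (19.8%) and 214 (4.73%). Over all regions with a peak in each list, the shares were 13.5% out and 4.73% in on the lower side and 13.7% and 4.68% on the higher.

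How far the edges appeared to move depended on how an edge was defined. Taking both sides together, 16.2% of sides lay over 200 bp outward at 30 min and 26.4% at 1 h. With the edges of the widest peak of each list these were 28.6% and 50.6%. When each edge was followed on through peaks of its own list within 1 kb, they were 29.9% and 45.7%. In members with at least 50% control cover, a limit chosen after seeing the data, they were 13.4% and 22.6%, while 49.3% and 72.0% of sides lay outward in the 348 others. Low control cover leaves more room for outward edges, so nothing is read from that contrast. Under each of these settings more sides lay outward than inward at both times, and at 30 min they did so by 10.9% against 9.47% in members of 5 kb or more. In the 69 members of 10 kb or more the order turned at 30 min, with 9.42% of sides outward and 10.9% inward, and at 1 h it was 23.9% and 5.80%.

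Where regions extended, 1 side did so more often than both, in members and over all regions with a peak in each list. Since most sides did not lie outward, this order follows even if the sides move independently. Nothing is read from it. At 1 h, 409 members (9.03%, against 4.64% over all regions with a peak in each list) extended by more than 200 bp on both sides. Another 1569 (34.7%, against 28.3%) extended on 1 side only, 801 of them on the lower and 768 on the higher side. No side extended in 2550 (56.3%, against 67.1%). At 30 min, 149 members (3.29%, against 1.89%) extended on both sides and 1168 (25.8%, against 21.1%) on 1. Neither edge was moved by more than 200 bp in either direction in 2605 members at 30 min (57.5%, against 66.2%). At 1 h this held for 2226 (49.2%, against 60.4%). The share with both sides outward at 1 h was 23.5% with the edges of the widest peak, 22.0% when edges were followed through peaks within 1 kb, 5.91% in members of 5 kb or more, 5.65% with at least 50% control cover and 1.61% for shifts over 500 bp.

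The largest outward shifts belonged to regions with little control Pol II. Edges are measured inside the merged region, so a shift that is long for its region leaves little room for control peaks. Ranking by shift thus favours low control cover, and nothing is read from that link. On chromosome 1 from 2181540 to 2188816, control peaks covered 337 bp, 30 min peaks 381 bp at another place in the region, and a single 1 h peak all 7277 bp. Its higher edge lay 2810 bp outward at 30 min and 4682 bp outward at 1 h, and its lower edge 3155 bp inward and then 1136 bp outward. It therefore ranks first for shifts in both directions at 30 min, on control peaks that covered 4.63% of the region. On chromosome 10 from 106072296 to 106076790, control had a single peak of 136 bp and 30 min 380 bp in 2 pieces, while 1 h peaks filled all 4495 bp, with the higher edge 3797 bp outward. On chromosome 5 from 136824763 to 136829585, 158 bp in control and 481 bp at 30 min stood against all 4823 bp at 1 h.

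Other regions were already long at 30 min. The region on chromosome 14 from 75744725 to 75748704 had 1 control peak, 799 bp long, toward its lower end, and Pol II covered 3395 bp in 1 piece at 30 min and 3744 bp in 5 pieces at 1 h. The higher edge lay 2649 bp outward at 30 min and 2742 bp at 1 h. On chromosome 15 from 101430248 to 101434020, the cover was 246 bp in control, 1695 bp in 6 pieces at 30 min and all 3773 bp at 1 h. On the lower side the region on chromosome 14 from 75075501 to 75079601 extended by 2195 bp at 30 min and 2434 bp at 1 h, from a control cover of 28.9%. The same kind of extension was seen on chromosome 11 from 1487534 to 1490433, with the higher edge 2372 bp outward at 30 min. At 1 h it was seen on chromosome 16 from 87886364 to 87890149, with 2722 bp.

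Members with at least 50% control cover also extended by 1 to 2 kb in places; these were picked out after their values were seen. On chromosome 15 from 91423040 to 91427787, the lower edge lay 2026 bp outward at 30 min and 2282 bp at 1 h, while the higher edge lay 193 and 247 bp inward. On chromosome 12 from 117467231 to 117471845, the lower edge lay 1587 and 1481 bp outward and the higher edge stayed within 88 bp. On chromosome 10 from 79802956 to 79807908, the higher edge lay 691 bp outward at 30 min and 1891 bp at 1 h. In each of these, Pol II extended from 1 end of a region that control Pol II covered over at least 50% of its length.

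Of the 5 members with the largest inward shifts at 1 h, 4 were just over 2 kb wide. Inward sides as a whole made up 4.39% of sides at 2 to 3 kb, 4.15% at 3 to 5 kb, 7.23% at 5 to 10 kb and 5.80% from 10 kb up at 1 h. On chromosome 3 from 196754917 to 196757103, Pol II covered 2143 bp in control and 2054 bp at 30 min, and 196 bp at 1 h. On chromosome 10 from 33484385 to 33486621, it covered 1957, 1588 and 177 bp. These 2 regions lost most of their listed Pol II by 1 h. A region on chromosome 10 from 80965477 to 80967731 went from 2025 bp in control to 933 bp at 1 h, with its lower edge 1181 bp inward. Another on chromosome 20 from 3729555 to 3731609 went from 1770 to 920 bp, with its lower edge 1135 bp inward. A wider region on chromosome 8 from 145537453 to 145544571 drew in by 1220 bp on the higher side, with 6830 bp covered before merbarone, 6996 bp after 30 min and 5878 bp after 1 h.

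The largest inward shifts at 30 min were of another kind: apart from the region on chromosome 1 above, each of the 4 was thinly covered in control and filled at 1 h. On chromosome 11 from 19771091 to 19774036, control peaks covered 834 bp, 30 min peaks 213 bp and 1 h peaks all 2946 bp. On chromosome 7 from 106846677 to 106850114, they covered 1234, 476 and 3438 bp. The region on chromosome 19 from 47722548 to 47725940 had 606, 588 and 3393 bp, and that on chromosome 4 from 5735684 to 5738220 had 310, 340 and 2496 bp.

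The bases gained and lost were then split by where they lay. At 30 min, 592 kb of Pol II cover were added inside the control span of the members, 408 kb beyond the lower edge and 404 kb beyond the higher edge, and 859 kb of control cover were lost. At 1 h, 815 kb were added inside, 732 kb and 738 kb beyond the edges, and 492 kb were lost. The net gain was 545 kb at 30 min and 1794 kb at 1 h. New cover beyond the control edges thus made up 57.8% of the bases added at 30 min and 64.3% at 1 h in these regions. In fragmented regions the shares were 21.8% and 25.4%, and the rule leaves more gaps inside to fill there.

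**Figure D4:**
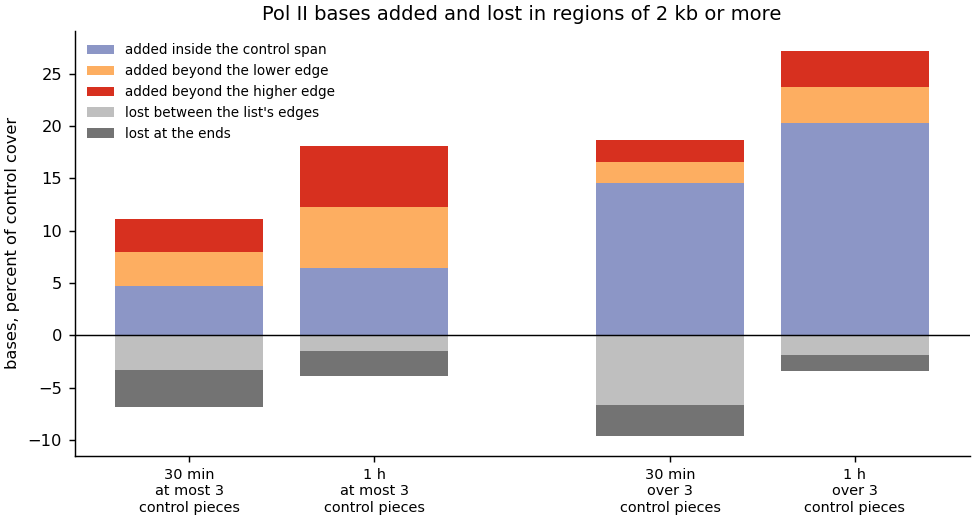
Pol II bases added (above 0) and lost (below 0) at 30 min and 1 h as a percent of control cover (y axis), in members and in fragmented regions of 2 kb or more (x axis), split by place. In members, additions beyond the edges are the larger part at both times, and in fragmented regions most additions lie inside the control span.

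Gaps between control peaks, those of 37 bp or less included, amounted to 859 kb in 3445 members, and 68.9% of that length lay under peaks at 30 min and 94.9% at 1 h. All gap bases were covered in 1601 of these members at 30 min and 2868 at 1 h. A gap inside a merged region must lie under a merbarone peak for the region to be merged, so a filling of this order is set by the construction. The bases beyond the edges were spread unevenly. The 452 members with most of them held 41.4% of such bases at 30 min and 40.1% at 1 h.

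Most members stood close to further Pol II. For 65.6% of sides the next merged region lay within 1 kb, and 84.3% of members had such a neighbour on at least 1 side. The next region could be any of the 104562 merged regions, whichever lists it came from. These shares were counted for members only, so whether members differ here from other regions is not known. Sides with a neighbour within 1 kb lay outward in 17.5% of cases at 30 min and 26.7% at 1 h. Those with a neighbour at 1 to 5 kb did in 18.3% and 33.8%, and those with none within 5 kb in 12.1% and 22.6%. Outward sides thus occurred at isolated ends too, and 420 members had no other region within 5 kb on either side.

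TOP2A was not used to choose the regions. Of 1840 TOP2A peaks, 581 (31.6%) lay in members, and 435 members (9.61%, 8.78 to 10.5) held at least 1, against 3.35% of all regions with a peak in each list. The share was 5.67% (4.73 to 6.79) in fragmented regions and 2.16% (1.99 to 2.34) in narrower ones. Per Mb of merged length there were 38.5 TOP2A peaks in members, 17.1 in fragmented and 26.1 in narrower regions. Per Mb under control Pol II peaks these were 46.1, 22.0 and 37.8, so the order held on both scales. No test was made of these differences, since regions are not replicates and the TOP2A list stands for 2 libraries.

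Members held TOP2A more often in each class of width too. Among regions of 2 to 3 kb, 8.26% (7.31 to 9.33) of members and 1.64% (0.835 to 3.21) of fragmented regions held TOP2A. At 3 to 5 kb the shares were 9.57% and 3.42%, at 5 to 10 kb 14.5% (11.4 to 18.1) and 8.51% (6.48 to 11.1), and from 10 kb up 36.2% (25.9 to 48.02) and 16.0% (11.4 to 21.9). These intervals treat regions as independent, which they are not, so they do not test the difference in any width class. In members of 5 kb or more together the share was 17.5%.

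TOP2A was most frequent where control Pol II was unbroken. It was found in 13.1% (11.6 to 14.8) of members with 1 control piece, 8.02% (6.80 to 9.43) with 2 and 6.99% (5.69 to 8.55) with 3. Per Mb under control peaks the values were 63.5, 38.3 and 34.5. Beyond the limit of the rule, 5.51%, 5.29% and 4.72% of regions with 4, 5 and 6 control pieces held TOP2A. Members with under 50% control cover held it in 3.16% of cases (1.77 to 5.57), or 18.1 TOP2A peaks per Mb of length but 58.5 per Mb under control peaks, a value that rests on 17 TOP2A peaks.

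By chromosome, the share of members with TOP2A went from 3.58% on chromosome 19 (11 of 307) to 20.9% on chromosome 10 (42 of 201). Chromosomes 4 and 13 had 18.9% and 18.3%, and chromosomes 20, 22 and X had 4.23%, 4.30% and 3.64%. Outward sides at 1 h varied less, from 21.0% on chromosome 17 to 33.7% on chromosome 15. These values describe single lists and have no replicate spread. They were computed for members only, so they cannot be told apart from differences between chromosomes over all regions.

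Within members TOP2A lay well inside the Pol II span. Of the 581 TOP2A peaks, 570 (98.1%, 96.6 to 98.9) had their midpoint under a control Pol II peak, 576 under a 30 min peak and 574 under a 1 h peak. Of the 15.1 Mb of members, 12.6 Mb lay under control peaks, 13.2 Mb under 30 min peaks and 14.4 Mb under 1 h peaks. Most positions in a member are thus under a peak, at 1 h nearly all, so high counts follow in large part from that cover. The median distance to the nearer Pol II edge was 820 bp for control edges, 879 bp for 30 min edges and 953 bp for 1 h edges. TOP2A was mapped in untreated cells only, so the longer distances come from Pol II edges and not from a second TOP2A map. Along the control span, 72.1% (68.3 to 75.6) of TOP2A midpoints lay in the middle 60%, and 7.67% lay in the outer 10% at either end. An even spread would put 60% in that middle part, and in members of 5 kb or more the share was 64.2%. Against the edges at 30 min and 1 h, 73.1% and 78.0% lay in the middle 60%. Lower and higher sides were even, with 50.9% on the lower side of the control centre.

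**Figure D5:**
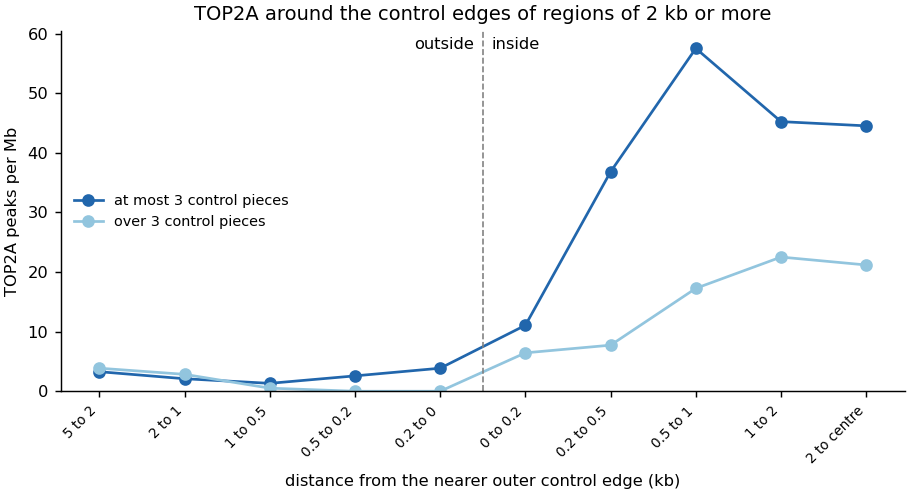
TOP2A peaks per Mb (y axis) by distance in kb from the nearer outer edge of control Pol II (x axis; left of the dashed line outside the region, right of it inside), in members and in fragmented regions. In members the density is 57.5 per Mb at 0.5 to 1 kb inside the edge and at most 3.87 per Mb outside it.

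The density of TOP2A stepped up over a short distance inside the edge. Just outside, within 200 bp, there were 3.87 TOP2A peaks per Mb, and at 2 to 5 kb outside 3.28. The first 200 bp inside held 11.1 per Mb, the stretch from 200 to 500 bp 36.8, and the stretch from 500 to 1000 bp 57.5. At 1 to 2 kb inside there were 45.3 and deeper still 44.5. Fragmented regions had lower values at every inside distance, 6.44, 7.73, 17.3, 22.5 and 21.2 per Mb in the same order.

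The stretches from the control edges to merbarone edges further out held few TOP2A midpoints. These stretches, gaps without Pol II peaks included, came to 0.944 Mb at 30 min and 1.49 Mb at 1 h. They held 7 TOP2A midpoints at 30 min (7.42 per Mb) and 6 at 1 h (4.03 per Mb), against 574 within the control span (42.6 per Mb). Only 7 of the 581 TOP2A peaks in members had a midpoint outside the control span, so low counts were set in advance. Up to 5 kb outside the control edges the density was 1.3 to 3.9 per Mb. These stretches are thus not shown to be poorer in TOP2A than their surroundings. With so few midpoints, 30 min and 1 h cannot be ranked.

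Most members with TOP2A held a single peak of it: 343 had 1, 61 had 2, and the most was 7. The widest region, on chromosome 11 from 65184409 to 65218149, held 7, of which 6 lay between 6125 and 12953 bp from its lower edge. The 8.78 kb region on chromosome 7 from 5562713 to 5571490 also held 7, all on the higher side of its centre, the first 4938 bp and the last 7060 bp from the lower control edge. Its control Pol II covered 8726 bp, its 30 min Pol II 7819 bp and its 1 h Pol II 8449 bp, so cover was longest before merbarone.

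Regions rich in TOP2A showed no common direction of shift. On chromosome 17 from 79473709 to 79487881, 6 TOP2A peaks lay between 3417 and 5598 bp from the lower edge of a 13.9 kb control span, and that edge moved out by 133 bp at 30 min and 257 bp at 1 h. On chromosome 3 from 150125146 to 150129524, 6 lay in a 4.34 kb span, which ended 383 bp further in on the higher side at 30 min and 29 bp further out at 1 h. On chromosome 11 from 65654869 to 65668311, 5 lay in a 13.3 kb span whose edges were within 112 bp of control at both times.

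Members with TOP2A extended about as often as those without. At 1 h, 25.4% (22.6 to 28.4) of sides of members with TOP2A lay over 200 bp outward, and 26.5% (25.5 to 27.4) of sides of the other members. At 30 min the shares were 13.6% (11.5 to 16.0) and 16.5% (15.7 to 17.3). The intervals overlapped at each time, but sides are not replicates and no test was made. From 10 kb up, 38.0% (25.9 to 51.9) of 50 sides with TOP2A and 15.9% (9.72 to 24.95) of 88 without lay outward at 1 h, a contrast that rests on 25 and 44 regions and was not seen in the narrower classes, where the intervals overlapped. Median cover at 1 h was 98.6% in members with TOP2A and 97.2% in the others, from 89.2% and 85.9% in control.

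Whether Pol II extended toward or away from TOP2A could not be told from these lists. In 384 members every TOP2A midpoint lay on 1 side of the control centre, and in 160 of them the shifts of the sides at 1 h differed by more than 200 bp. The larger shift was on the side away from TOP2A in 59 (36.9%, 29.8 to 44.6). At 30 min it was so in 62 of 146 (42.5%, 34.7 to 50.6). The control centre and the shift share the same control edges, however. With the side of TOP2A taken from the centre of the 1 h span the share was 52.5%, and from the centre of the merged region 52.2%, both set after seeing the data. In members of 5 kb or more it was 50% of 24.

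The 2 kb limit cut through similar regions. Just inside it, regions of 2000 bp on chromosomes 20, 22 and 14 were covered over 97.7%, 33.6% and 52.1% in control and 93.9%, 97.2% and 100% at 1 h. Just outside, regions of 1999 bp on chromosomes 3, 17 and 6 were covered over 50.9%, 88.4% and 95.7% in control and 96.5%, 99.3% and 96.4% at 1 h. None of these 6 held TOP2A.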

How the data were processed

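Peaks were called by the authors from Pol II and TOP2A chromatin immunoprecipitation, and the deposited values are each peak's start and end in bp, 1 list per condition. Reads were aligned with Bowtie 1.2.0 to hg19, and MACS2 and deepTools 2.4.1 were used, per the submitters' processing notes. Not given in the sources used here are the peak threshold, the background library and the way replicates were pooled. Depth is unknown, so a list from more reads cannot be told apart from more bound sites.

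Peaks of the 3 Pol II lists that shared at least 1 bp were merged. Control peaks up to 37 bp apart were joined to count pieces, and regions of at least 2 kb with at most 3 pieces and a peak in each list were kept. Shifts of more than 200 bp were counted. TOP2A was assigned by an overlap of 1 bp and placed by its midpoint. Positions are printed counted from 1. No test was run, since the lists chose the regions and hold no replicates. The members and lists were chosen with earlier results of these data known.

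Named regions are the 5 with most bases under control peaks, the 5 largest outward and inward shifts per time, the 5 with most TOP2A, and the 3 nearest each side of the 2 kb limit; those with at least 50% control cover were added after their values were seen. Alternatives changed the limits of the lists, width, pieces, merging, edge and shift. Like limits means that in every Pol II list gaps of up to 37 bp were closed, and peaks narrower than the smallest at 1 h were then dropped. The code was tested on simulated data of 2000 regions and against bedtools 2.31.1, and passed 5 of 5 checks. Python 3.11.15 was used, with scipy 1.17.1, numpy 2.4.6, matplotlib 3.10.9 and pandas 2.3.3. No hg19 annotation was used here, so regions carry no gene names and no sequences are printed.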

Additional observations from a re-analysis of the deposited data

How the results depend on the processing

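No paired analysis was possible because the libraries of each condition share 1 pooled list, and no library could be left out for the same reason. More sides lay outward than inward at both times in each setting except the 500 bp limit, for which inward sides were not counted; in the width class from 10 kb up the order turned at 30 min (9.42% outward, 10.9% inward). Values follow in the order sides outward at 30 min, sides outward at 1 h and both sides outward at 1 h, then median cover by the control, 30 min and 1 h lists. The reported values were 16.2%, 26.4%, 9.03%, 86.2%, 89.7% and 97.4%. With like limits in every list they were 20.1%, 31.1%, 11.6%, 84.2%, 89.1% and 97.1%. In the 491 members of 5 kb or more they were 10.9%, 18.2%, 5.91%, 95.9%, 95.6% and 98.6%, with TOP2A in 17.5%, 64.2% of its midpoints in the middle 60% and the larger shift away from it in 50%. The 1663 members with 1 control piece gave 15.1% of sides outward at 30 min, cover of 90.9%, 91.6% and 98.01%, and TOP2A in 13.1%. With peaks within 37 bp merged too, 17.7% and 27.7% of sides lay outward and cover was 84.6%, 88.3% and 96.6%. With at least 50% control cover, a limit chosen after seeing the data, sides outward were 13.4% and 22.6%, both sides 5.65%, and cover by the control and 30 min lists 87.6% and 90.5%. Widest-peak edges gave 28.6%, 50.6% and 23.5%, edges followed through peaks within 1 kb 29.9%, 45.7% and 22.0%, and shifts over 500 bp 5.06%, 8.49% and 1.61%. Leaving out TOP2A peaks at their smallest width of 73 bp gave TOP2A in 7.60% of members. The larger shift lay away from TOP2A in 36.9% of members by the control centre, but 52.5% by the 1 h centre and 52.2% by the merged centre, both chosen after seeing the data. Of 66 values under alternatives, 44 moved and 22 did not, that is, a share or median stayed within the counting interval of the reported value or the number of members within 1.5 times of it; apart from the sets of members and edges used, the cause was not tested. Depth and replicate spread are unknown, so none of these values says how far the lists would differ between repeats of the experiment.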

Other observations

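Median spans between the outer edges of the members were 2346 bp for control Pol II, 2436 bp for 30 min and 2586 bp for 1 h. Members held 11433 control peaks (13.0% of that list), 10773 peaks of the 30 min list (12.5%) and 6593 of the 1 h list (8.06%). The closest peaks stood 1 bp apart in control and at 30 min but 38 bp apart at 1 h. These counts therefore rest on unlike limits, and the fall at 1 h is not read as a change in Pol II. Control cover was fully kept in 600 of the 4528 members at 30 min and 1707 at 1 h. The counts were 64 and 554 of the 1940 fragmented regions, and 5904 and 9983 of the 27576 narrower regions. Lost control cover came to 6.81% at 30 min and 3.90% at 1 h of all control bases in members. In 118 members at 30 min and 68 at 1 h, 1 side lay more than 200 bp outward and the other more than 200 bp inward. Over the 34044 regions with a peak in each list, 1028 and 598 did so.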
